A study of Homo sapiens with 6 samples.

Results

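Transcripts of 10 alveolar and lung lineage genes were followed in A549, an established line from a lung adenocarcinoma that is often used as a stand-in for alveolar epithelium. The genes were SFTPB, SFTPC, SFTPD, LAMP3, ABCA3, NKX2-1, FOXA1, FOXA2, GATA6 and SOX2. They are 10 of the 20046 genes named on the array. All probes that the platform annotation assigns to them by symbol were taken, which gave 16 of the 47231 probes of an Illumina HT-12 v4 bead array. RNA came from 3 replicates transfected with pcDNA-NME2-MYC and labelled NME2 induced, and from 3 given the control plasmid pcDNA-MYC, which the submitters call biological replicates, all 48 h after transfection. The first plasmid encodes MYC-tagged NME2, a nucleoside diphosphate kinase and metastasis suppressor that the parent cells also express from their own gene. The arrays read whole cultures, in which a change in few cells and a smaller change in all cells cannot be told apart.

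Alveolar type 2 cells make pulmonary surfactant, a film of lipid and protein that keeps alveoli from collapsing. SFTPB and SFTPC are small hydrophobic proteins of that film, SFTPD is a secreted collectin of innate defence, and ABCA3 pumps phospholipid into lamellar bodies, the storage organelles in which LAMP3 is a membrane glycoprotein. NKX2-1 is the homeodomain factor that marks lung and thyroid endoderm and drives the surfactant genes. FOXA1 and FOXA2 are forkhead pioneer factors of foregut endoderm, GATA6 is a zinc finger factor of the same lineage, and SOX2 marks the proximal airway and foregut as well as pluripotent cells.

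The members fell into genes with a clear signal on every array and genes at the level of background. A probe was called detected on an array where its deposited detection p-value was under 0.05. LAMP3, SOX2, FOXA1, FOXA2 and ABCA3, which are 5 of the 10 genes, had a probe detected on all 6 arrays, whereas SFTPC and NKX2-1 had no probe detected on any array. SFTPB, SFTPD and GATA6 lay between, near the detection limit. In all, 6 of the 16 probes were detected on 6 arrays, 4 on 1 to 5 arrays and 6 on none. Over the whole array 33.4% of probes were detected on 6 arrays and 41.5% on none. No member passed the test for a difference between NME2-induced and control cells, and the ratios farthest above 1 were those of LAMP3 and of 1 SOX2 probe.

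Other facts of the arrays bear on these readings. Between 19043 and 20047 probes were detected on an NME2-induced array and between 19916 and 20726 on a control array. Of 5 tested probes for NME2 or the NME1-NME2 readthrough, 1 passed the threshold as higher and 2 as lower. On the log2 scale, NME2-induced minus control was 1.04 for the higher probe, annotated to NME2. It was -1.89 and -1.99 for the lower probes, annotated to NME1-NME2, and 0.26 and -0.59 for the others. The labels were thus not borne out by every probe, and the largest differences were downward. These probes read RNA. For NME2 protein, the paper reports a western blot of induced A549 cells, with a level that it places in the physiological range. NME2-induced here means the cells so labelled. Of 11 genes on the array chosen to check the A549 identity, 8 had a probe detected on all 6 arrays, among them the keratin KRT8 and the aldo-keto reductases AKR1B10 and AKR1C3. No probe of CDKN2A, a gene known to be deleted in this line, was detected on more than 1 array. AKR1C1 had its probe detected on 0 arrays and KRT18, a partner of KRT8, had its probes detected on at most 1 array. A probe at background is therefore not read here as an absent transcript.

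**Figure D1:**
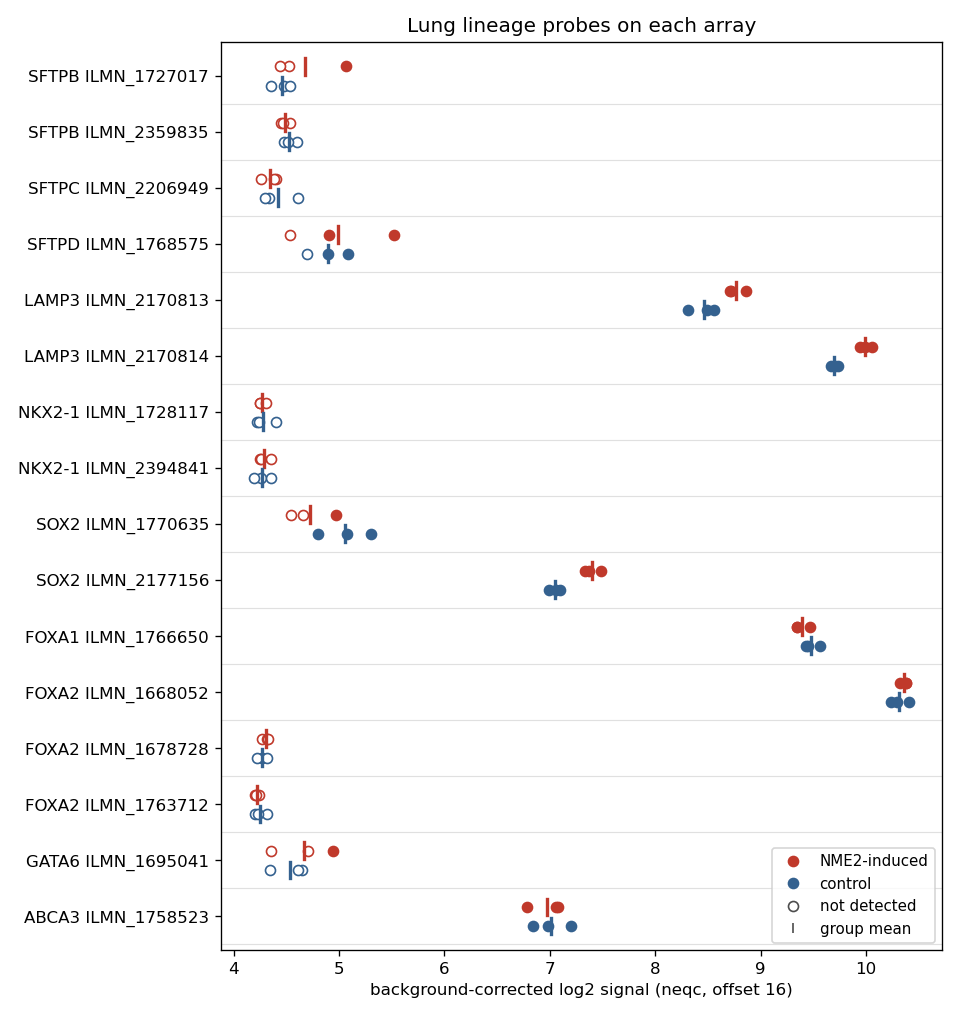
Background-corrected log2 signal (x axis) of the 16 lung lineage probes (rows, by gene and probe identifier) on each array, NME2-induced above control in each row, with open circles where the probe was not detected and a vertical line at the group mean. LAMP3, SOX2, FOXA1, FOXA2 and ABCA3 each have a probe detected on all 6 arrays, and the probes of SFTPC and NKX2-1 have none detected.

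The surfactant proteins gave little signal. SFTPC, the protein regarded as most restricted to alveolar type 2 cells, had 1 probe, with deposited signals of -0.558, -8.07 and -1.28 on the NME2-induced arrays, against -3.14, 6.51 and -5.51 on the control arrays. Signals are intensities from which background had been subtracted, so that a value around 0 is no signal. The groups overlapped, and the probe was detected on 0 arrays of each group.

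SFTPB was represented by 2 probes. The probe designed to NM_198843 (ILMN_1727017) had signals of 4.32, 17.6 and 1.29 in NME2-induced cells and of -2.45, 2.62 and 4.52 in control cells. Its single detection was on the array of NME2-induced replicate 2, while the other NME2-induced values lay within the control range. The probe designed to NM_000542 (ILMN_2359835) lay between 1.56 and 4.41 in NME2-induced cells and between 2.54 and 6.27 in control cells, and was detected on 0 arrays. Neither SFTPB probe met the filter for testing, which asked for detection on at least 3 of the 6 arrays.

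SFTPD was the only surfactant protein gene tested. Its probe had signals of 4.60, 30.2 and 13.9 on the NME2-induced arrays, against 13.8, 18.2 and 8.86 on the control arrays, and was detected on 2 arrays of each group. The NME2-induced arrays held both the lowest and the highest value, so the groups overlapped. On the log2 scale NME2-induced minus control, the direction used throughout, was 0.09 (SE 0.24, 95% interval -0.46 to 0.65). Its adjusted p by limma was 0.889. It was -0.17 without NME2-induced replicate 2.

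The lung lineage factors known to act on these genes have been studied largely through their proximal promoters. The RefSeq promoter table (GRCh38.p14) held 7 of the 10 genes. LAMP3, FOXA2 and SFTPC were not matched. The 250 bases before the annotated start are shown, on the strand of the gene, for SFTPB and SFTPD, whose probes were at or near background, and for SOX2 and FOXA1, which were detected on all arrays. Capitals mark CAAG, the core read by NKX2-1, TGTTT, the forkhead core read by FOXA1 and FOXA2, AGATAA, read by GATA factors, and ACAAAG, read by SOX factors, each on either strand.
SFTPB chr2:85668200-85668449 (-): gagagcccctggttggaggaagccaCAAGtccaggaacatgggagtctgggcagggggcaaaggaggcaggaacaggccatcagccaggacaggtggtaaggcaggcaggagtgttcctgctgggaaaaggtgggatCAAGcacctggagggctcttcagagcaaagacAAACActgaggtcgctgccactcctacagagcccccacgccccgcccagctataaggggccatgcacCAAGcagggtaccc
SFTPD chr10:79949106-79949355 (-): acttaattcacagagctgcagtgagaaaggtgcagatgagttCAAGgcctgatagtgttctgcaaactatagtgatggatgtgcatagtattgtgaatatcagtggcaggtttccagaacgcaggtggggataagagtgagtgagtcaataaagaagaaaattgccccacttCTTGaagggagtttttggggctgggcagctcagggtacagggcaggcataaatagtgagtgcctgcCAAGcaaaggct
SOX2 chr3:181711675-181711924 (+): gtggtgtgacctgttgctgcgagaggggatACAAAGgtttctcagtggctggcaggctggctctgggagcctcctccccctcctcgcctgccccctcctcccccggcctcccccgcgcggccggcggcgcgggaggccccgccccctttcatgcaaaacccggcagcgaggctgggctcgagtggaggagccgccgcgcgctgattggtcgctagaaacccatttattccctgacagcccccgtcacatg
FOXA1 chr14:37595250-37595499 (-): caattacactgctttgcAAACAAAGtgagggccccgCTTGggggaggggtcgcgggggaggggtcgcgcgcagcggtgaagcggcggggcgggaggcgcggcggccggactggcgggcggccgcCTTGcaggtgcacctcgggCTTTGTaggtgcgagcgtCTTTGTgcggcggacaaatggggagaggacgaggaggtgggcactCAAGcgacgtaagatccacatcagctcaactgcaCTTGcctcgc
The SFTPB window lies before the inner of 2 annotated starts, inside the longer SFTPB gene model. The SFTPD window likewise lies inside the annotated SFTPD gene, whose longest model starts farther upstream. The SFTPB window held CAAG at 3 places, 1 of them 113 to 110 bases before the start, and the forkhead core at 1 place 81 to 77 bases before it. The SFTPD window held CAAG at 3 places, and the SOX2 window held ACAAAG once. The FOXA1 window held CAAG at 4 places and ACAAAG at 3, the first of which overlaps the forkhead core by 3 bases. Such short runs are common, as CAAG occurred in 80.9% of 35116 promoter windows, TGTTT in 40.4%, ACAAAG in 13.7% and AGATAA in 9.17%. The short cores were searched after longer runs, CTCAAG for NKX2-1 and either TGTTTAC or TGTTTGC for forkhead factors, had given no match in the SFTPB windows. Of these, CTCAAG contains CAAG and was found in the FOXA1 window and in 10.4% of all windows. The FOXA1 window also held TGTTTGC once, 235 to 229 bases before the start, where it contains the marked TGTTT. The 2 windows of NKX2-1 itself, not shown, held TGTTTAC and TGTTTGC at 1 place each. Over all windows TGTTTAC occurred in 2.98% and TGTTTGC in 3.23%. A match is a description of the letters and no evidence of binding.

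The promoters also differed in their CpG content, which the choice of genes had not used. The ratio of observed to expected CpG was 0.13 and 0.05 in the 2 SFTPB windows and 0.08 in the SFTPD window. It was 0.68 for SOX2, 0.70 for GATA6, 0.98 for FOXA1, 0.98 for ABCA3, and 0.46 and 0.61 for the 2 windows of NKX2-1. The median over all windows was 0.56, with quartiles of 0.22 and 0.85. SFTPB and SFTPD thus lay below the lower quartile. The other 4 genes and both windows of NKX2-1 lay above it. Of these CpG-richer genes, SOX2, FOXA1 and ABCA3 were detected on all arrays, whereas GATA6 and NKX2-1 were not.

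Of the lamellar body genes, ABCA3 was detected throughout and did not separate the groups. The signals of its probe were 117, 119 and 94.3 on the NME2-induced arrays and 111, 132 and 99.0 on the control arrays. The mean difference on the log2 scale was -0.04 (SE 0.13), with an adjusted p of 0.924 by limma. Ratios between 0.790 and 1.20 lay in its 95% interval, so that a change of that size in either direction would not have been told from none. Without NME2-induced replicate 3, or without control replicate 2, the log2 fold change was 0.06.

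LAMP3, also known as DC-LAMP from mature dendritic cells, was brighter in NME2-induced cells on both of its probes. The probe ILMN_2170814 had signals of 1002, 963.6 and 1050 on the NME2-induced arrays, against 833.0, 821.2 and 800.7 on the control arrays. Every NME2-induced array was above every control array. On the log2 scale the means were 9.99 ± 0.061 in NME2-induced cells and 9.70 ± 0.028 in control cells (SD, n = 3 each), a 1.22-fold ratio (log2 fold change 0.29, SE 0.083, unadjusted p = 0.00908 and adjusted p = 0.223 by limma). The difference thus exceeded the spread between arrays of a group but did not pass over all 19394 probes tested. With the trend and robust options of limma's eBayes step, under which 476 rather than 46 of all probes passed, its adjusted p was 0.0315.

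The other LAMP3 probe, ILMN_2170813, was dimmer and showed the same separation. Its signals were 404.2, 407.1 and 450.0 in NME2-induced cells and 362.8, 301.5 and 344.8 in control cells. Again no control array reached the lowest NME2-induced array. The log2 fold change was 0.31 (SE 0.10, 95% interval 0.07 to 0.55, unadjusted p = 0.0173 and adjusted p = 0.270 by limma). The unadjusted limma p was 0.0557 without NME2-induced replicate 3 and 0.0595 without control replicate 2. The probes differed in their log2 fold changes by -0.02 (exact permutation test over the 6 arrays, two-sided p = 1, n = 3 per group, where the smallest possible is 0.1). Both carry the accession NM_014398, and their consecutive identifiers do not say whether their sequences overlap, so they are not counted as independent measurements.

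SOX2 had 2 tested probes, of which 1 was well above background in both groups. This brighter probe, ILMN_2177156, gave 149.3, 164.3 and 144.9 in NME2-induced cells, against 121.1, 111.0 and 118.0 in control cells. All 3 NME2-induced arrays lay above all 3 control arrays. The means on the log2 scale were 7.40 ± 0.086 and 7.05 ± 0.057 in NME2-induced and control cells (SD, n = 3 each), a 1.27-fold ratio (log2 fold change 0.35, SE 0.09, 95% interval 0.14 to 0.56, unadjusted p = 0.00534 and adjusted p = 0.192 by limma). This was the smallest p among the members, at rank 536 of the 19394 probes.

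The second SOX2 probe, ILMN_1770635, was close to the detection limit. It gave 4.82, 8.02 and 15.3 on the NME2-induced arrays, of which 1 was called detected, and 23.6, 11.3 and 17.8 on the control arrays, all 3 of them detected. The groups overlapped, since NME2-induced replicate 3 lay above control replicate 2. The probe met the filter for testing through its control arrays alone, so its difference is given as a value and no direction is read from it. That value was -0.33 on the log2 scale (SE 0.16, 95% interval -0.71 to 0.05, unadjusted p = 0.0772 and adjusted p = 0.423 by limma). It depended on the processing, at -0.15 with an offset of 50 and -0.41 without background correction. Both probes carry NM_003106. By the mean of both probes, the dim one included, the log2 fold change of SOX2 was 0.01 (limma adjusted p = 0.980), so the separation of SOX2 rests on its brighter probe.

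**Figure D2:**
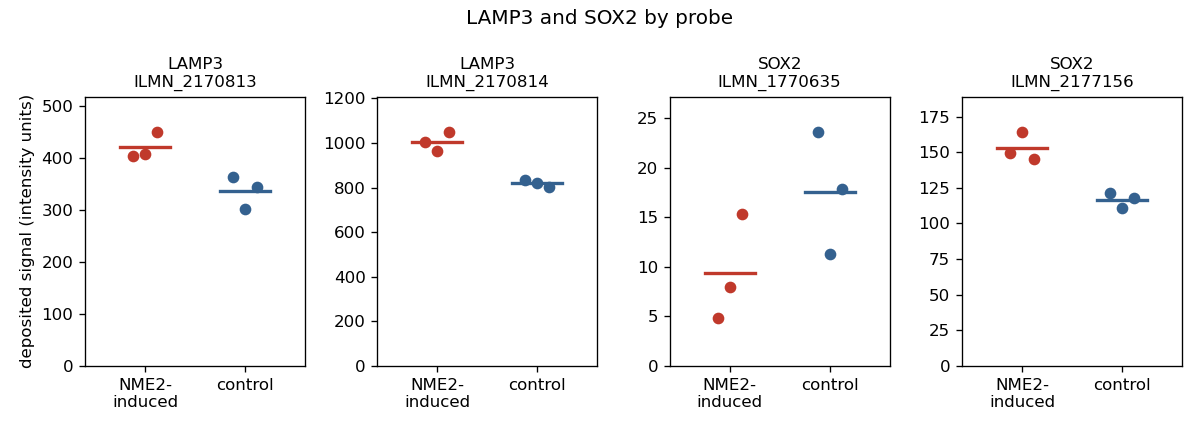
Deposited signal (y axis, linear intensity units, starting at 0) of the LAMP3 and SOX2 probes, with 1 point per array and a line at the mean of the 3 arrays, NME2-induced at the left and control at the right of each panel. Both LAMP3 probes and SOX2 probe ILMN_2177156 separate the groups, while the dim SOX2 probe ILMN_1770635, detected on 1 NME2-induced and 3 control arrays, overlaps.

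The forkhead factors were among the clearly detected members and hardly differed. FOXA1 gave 695.3, 638.8 and 635.8 on the NME2-induced arrays, against 676.0, 682.0 and 738.6 on the control arrays. The groups overlapped through NME2-induced replicate 1. The ratio of NME2-induced to control cells was 0.941, or -0.09 on the log2 scale (SE 0.089), with a 95% interval of 0.815 to 1.09 (adjusted p = 0.698 by limma).

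FOXA2 was read by 1 bright probe and 2 silent ones. The bright probe ILMN_1668052 gave 1266, 1317 and 1317 in NME2-induced cells and 1238, 1345 and 1194 in control cells, with the NME2-induced arrays inside the control range. The ratio was 1.03, or 0.05 on the log2 scale (SE 0.088), with a 95% interval of 0.897 to 1.19 (adjusted p = 0.843 by limma). The other FOXA2 probes, ILMN_1678728 and ILMN_1763712, were below 0 on all 6 arrays and detected on 0. The first of these shares the accession NM_153675 with the bright probe.

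NKX2-1 had no detectable signal in either group. Its probe ILMN_1728117 lay between -9.35 and -4.97 in NME2-induced cells and between -11.8 and -0.607 in control cells. The probe ILMN_2394841 lay between -9.03 and -2.25 in NME2-induced cells and between -15.0 and -2.31 in control cells. The groups overlapped for both probes, and no reading was called detected. GATA6 had 1 probe, with signals of 14.6, -2.19 and 9.04 in NME2-induced cells, against 7.70, -2.76 and 6.52 in control cells. It was detected on NME2-induced replicate 1 alone, and the lowest value of each group was below 0. No fold is given for SFTPB, SFTPC, NKX2-1 or GATA6, since at least 1 group had no detected reading and the mean of the other did not exceed the detection floor.

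Over all members, 8 of 16 probes, from 6 of 10 genes, met the filter of detection on at least 3 arrays, as did 41.1% of all probes. Of these 8, none passed the adjusted threshold of 0.05 by limma, where 0.0928% of all tested probes passed as higher and 0.144% as lower. At an unadjusted p under 0.05, 3 of the 8 were higher and 0 were lower, where the background over all tested probes was 6.28% higher and 7.32% lower. The same 3 probes, 2 of LAMP3 and 1 of SOX2, were those whose groups did not overlap, a separation seen upward in 10.1% and downward in 10.8% of all tested probes. The 3 probes stand for 2 genes, and the members had been chosen with earlier results on these genes known. The median log2 fold change of the 8 probes was 0.07, beside 0.00 over all tested probes, with the dim SOX2 probe included, and their range of -0.33 to 0.35 lay close to the 5th and 95th percentiles of all tested probes, -0.35 and 0.32. By 1 probe per gene, 0 of the 6 genes passed over 11358 genes, with limma adjusted p of 0.185 for LAMP3 and 0.162 for SOX2, where 0.247% of genes passed. The methods' t-test put 3 member probes under an unadjusted p of 0.05, where 13.2% of all tested probes were, and 0 after Benjamini-Hochberg adjustment, which 0.0309% of all tested probes passed.

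**Figure D3:**
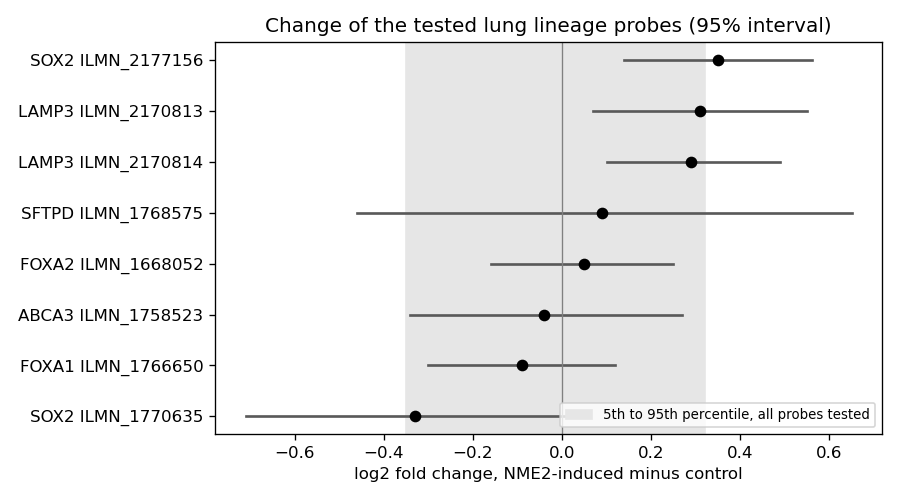
Log2 fold change of the 8 tested probes (points; x axis, NME2-induced minus control) with 95% intervals (lines), the grey band spanning the 5th to 95th percentile of all 19394 tested probes. The intervals of both LAMP3 probes and SOX2 probe ILMN_2177156 lie above 0 before any adjustment, and those of the other 5 probes include 0.

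SOX2 and LAMP3 are neighbours on chromosome 3. The reference annotation places 3 protein-coding genes between them, ATP11B, MCCC1 and DCUN1D1, all of them tested. Their 4 probes had log2 fold changes between -0.30 and 0.04, with 3 below 0 and a median of -0.14, and 0 passed over all probes. At an unadjusted p under 0.05, 0 were higher and 2 were lower, where 6.28% of all tested probes were higher and 7.32% lower. Whether these genes differed from SOX2 or LAMP3 was not tested. NKX2-1 and FOXA1 are likewise neighbours on chromosome 14, and MIPOL1, the only tested gene of 4 between them, was at -0.03.

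The genes whose profile over the 6 arrays came closest to that of the brighter SOX2 probe were SMYD5, PARP3 and PPM1K. After each profile was centred on its own mean, they differed from SOX2 by a root mean square of 0.0376, 0.0394 and 0.0411 on the log2 scale over 6 arrays. They were picked from all tested probes for that likeness, and their own log2 fold changes were 0.41, 0.32 and 0.33.

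Companion genes of the same programme were listed to set the members in context, and no companion probe passed the adjusted threshold by limma. Of 21 further surfactant and type 2 cell genes on the array, 8 were tested, and 0 of their 15 probes had an unadjusted p under 0.05 in either direction. Over all tested probes the share was 13.6%. The aspartic protease NAPSA and the cysteine protease CTSH, which process the precursor of SFTPB, were at 0.18 (SE 0.22) and, for the probe with the smallest p, 0.15 (SE 0.094). The NAPSA probe was dim, with signals between 11.2 and 34.4, detected on 2 NME2-induced arrays and 3 control arrays. LPCAT1, which makes the saturated phosphatidylcholine of surfactant, was at -0.06, and CSF2RA, a subunit of the receptor for GM-CSF, had its smallest p at -0.18 (SE 0.099). The other tested CSF2RA probes were at 0.11, -0.19 and -0.17, the first of them the brightest. SFTPA1 was detected on at most 1 array of each group by its probes, and the phosphate transporter SLC34A2 on 0. The median over the 15 probes was -0.04.

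Type 1 cell and airway genes were largely at background. Of 12 type 1 genes, 7 had no detected reading, among them the aquaporin AQP5 and PDPN, and 4 were tested. Caveolins CAV1 and CAV2, which many cell types express, supplied 5 of the 7 tested probes, with the CAV2 probes at 0.20, 0.10 and 0.03 (SE 0.087 and limma adjusted p = 0.374 for the first, which had the smallest p). Of 14 airway genes on the array, only the neuroendocrine granule protein CHGA was tested, at 0.05 (SE 0.13), and 10 had no detected reading, among them FOXJ1 of ciliated cells and KRT5 of basal cells. The CHGA probe was near the detection limit, with signals between 7.61 and 18.8, detected on 1 NME2-induced array and 2 control arrays. The club cell protein SCGB1A1 was detected on 1 NME2-induced array and 0 control arrays. Among 14 markers of blood, endothelial, stromal and liver cells, 4 were tested and 0 had an unadjusted p under 0.05. Of these, CD14, ALB and COL1A1 had a probe detected on all 6 arrays. The signals were between 67.3 and 102 for CD14, between 23.8 and 39.7 for ALB and between 13.9 and 25.2 for COL1A1. Detection at the levels of ALB and COL1A1 is therefore not read here as evidence of expression. The CD14 signals reached those of ABCA3, which lay between 94.3 and 132, and whether CD14 is expressed was not tested.

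Transcription factors of lung and foregut endoderm were widely detected, with 18 of 26 genes tested. At an unadjusted p under 0.05, 1 of 25 probes was higher and 3 were lower, where 6.28% of all tested probes were higher and 7.32% lower. CEBPD, a factor of the C/EBP family, gave 2140, 2140 and 2430 in NME2-induced cells and 1660, 1800 and 1560 in control cells, without overlap, at 0.42 on the log2 scale (SE 0.099, adjusted p = 0.170 by limma). FOXA3, a relative of FOXA1 and FOXA2, was at -0.32 (SE 0.13), with overlapping groups. Its probe was dim, at 21, 25.7 and 21.5 in NME2-induced cells and 40.7, 25.1 and 31.7 in control cells. NFIB, needed for lung maturation in mice, was at -0.27 (SE 0.095) by 1 probe and -0.02 (SE 0.10) by another. The GATA6 relative GATA5 was at -0.42 (SE 0.17), but its probe was near the detection limit. It gave 4.45, 15.8 and 13.1 in NME2-induced cells, detected on 2 arrays, and 17.1, 31 and 17.8 in control cells, detected on 3. Its difference is given as a value and no direction is read from it. The limma adjusted p of these 3 genes, by the probe with the smallest p, lay between 0.289 and 0.357. The median over the 25 probes was -0.05.

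In the pathways that pattern the developing lung, 17 of 26 genes were tested, and 1 of 23 probes was higher and 2 were lower at an unadjusted p under 0.05. Over all tested probes the shares were 6.28% higher and 7.32% lower. The retinoic acid receptor RARA gave 103, 107 and 115 in NME2-induced cells, against 154, 173 and 189 in control cells, by its tested probe. No NME2-induced array reached the control range, and the difference stood at -0.59 on the log2 scale (SE 0.10, adjusted p = 0.0961 by limma). The Wnt effector CTNNB1 had 4 tested probes, at -0.48 (SE 0.11), -0.21 (SE 0.096), 0.59 (SE 0.29) and 0.14 (SE 0.2). Their adjusted p by limma was 0.148, 0.390, 0.427 and 0.795. The groups did not overlap for the first 2 and overlapped for the others. The last probe was near the detection limit, detected on 2 NME2-induced arrays and 1 control array. Whether the probes differed was not tested. SPRY4, an inhibitor of FGF signalling, was at 0.28 (SE 0.11). The median over the 23 probes was -0.09.

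Relatives of LAMP3, ABCA3 and SOX2 gave no call either. Of 13 tested probes for the LAMP and ABC subfamily A relatives, 0 had an unadjusted p under 0.05, where 13.6% of all tested probes did. The lysosomal membrane proteins LAMP1 and LAMP2 were at 0.11 (SE 0.10) and, for the LAMP2 probe with the smallest p, -0.20 (SE 0.089), beside 0.29 and 0.31 for LAMP3. That LAMP2 probe was the dimmest tested, and the other tested LAMP2 probes lay between -0.23 and 0.04. The relative CD68 was at 0.11 by both tested probes (limma adjusted p = 0.582 and 0.593). For both, every NME2-induced array was above every control array. Whether LAMP3 differed from its relatives was not tested. Of 8 tested SOX relatives, SOX18 was lower at an unadjusted p under 0.05, at -0.41 (SE 0.16, limma adjusted p = 0.324), and SOX4 was at 0.02 (SE 0.094). Over all tested probes, 7.32% were lower at that threshold. The SOX18 probe was dim, at 16.9, 17.2 and 31.4 in NME2-induced cells and 31.4, 39.1 and 31.3 in control cells. Its groups overlapped, and no direction is read from it. The plot of the companion lists sets these values beside those of the members.

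**Figure D4:**
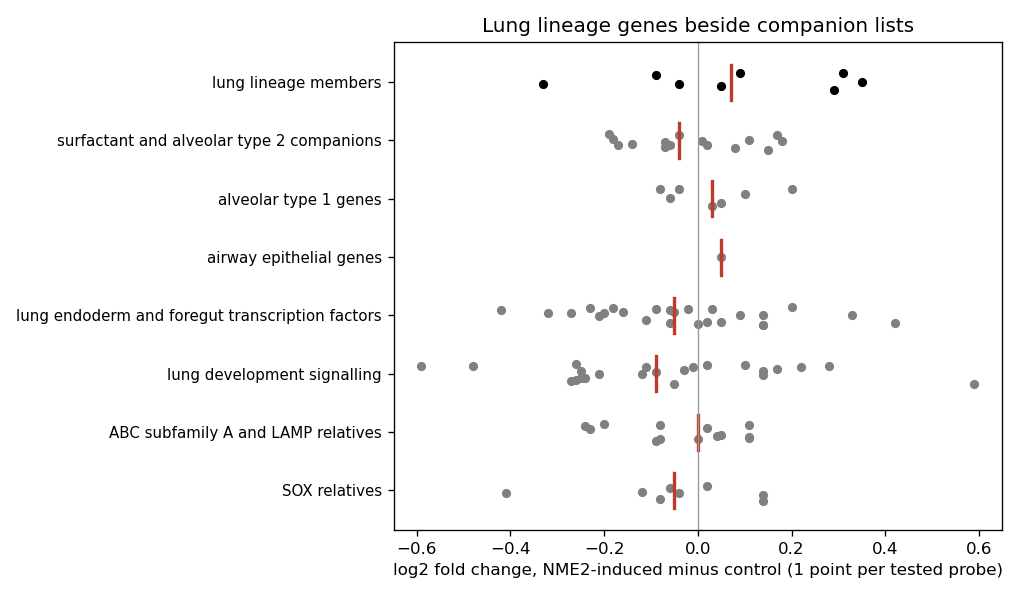
Log2 fold change (x axis, NME2-induced minus control) of each tested probe, 1 point per probe, for the lung lineage members (black) and 7 companion lists (grey), with a red line at the median and points spread vertically for visibility. The medians lie between -0.09 and 0.07, and no point passed the adjusted threshold.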

How the data were processed

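Per the labels, the authors used BeadStudio, and they deposited a signal and a detection p-value for each probe and array. Its version and settings are not given in the sources used here. The deposited intensity values formed 2 tables that were identical. They had a common minimum of -44.94 and a common maximum on all 6 arrays, and between 26.6% and 26.8% were at or below 0. They thus appear to be background-subtracted and quantile-normalized, although 1 table is called not normalized, so that differences in total brightness between arrays cannot be seen.

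Signals were processed with neqc of limma 3.58.1 in R 4.3.3, with background estimated from the detection p-values and an offset of 16, which shrinks the fold changes of dim probes. Probes detected (p under 0.05) on at least 3 of 6 arrays were tested with lmFit and eBayes, 2-sided, with Benjamini-Hochberg adjustment over 19394 probes and a threshold of 0.05. SE is the moderated standard error, with a median of 0.12, and SD is over 3 arrays. The number of arrays limits the precision.

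Gene names came from the platform annotation, which gave a single symbol for 30113 probes. There were 8 probes with several symbols and 17110 without any. Of the single symbols, 30074 matched the reference gene table (GRCh38.p14), and 0 symbols changed. Promoters were taken from RefSeq. The text names all members with every probe and, from each companion list, genes that pass the threshold or have the smallest p. Members, lists and tests were chosen with earlier results of these data known. Genes named outside this rule, for their detection or their role, were chosen after their values were seen. For the gene fit the detected probe with the highest mean stood for a gene. The alternatives were other background corrections and offsets, no second quantile step, other filters, trend and robust options, the replicate number as a block, the methods' t-test, each array left out in turn, and the mean of a gene's probes. The slide of each array is not given in the sources used here, and no batch term was fitted.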

Additional observations from a re-analysis of the deposited data

How the results depend on the processing

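No alternative brought more than 3 member probes past its threshold. The count of member probes past the adjusted threshold was 0, and 1 when eBayes was run with trend and robust options, which was LAMP3 probe ILMN_2170814. Its adjusted p by limma was then 0.0315 and reached 0.441 under other alternatives. The methods' t-test without adjustment gave 3 member probes. For member genes the count was 0, against 1 with trend and robust options and 2 by the methods' t-test without adjustment. For companion lists the count of 0 became 3 with normexp and offset 50, 2 with neqc and offset 50, 1 with the stricter filter, 3 with trend and robust options and 9 by the methods' t-test without adjustment. Over all probes, 46 passed, against 278 with normexp and offset 50, 235 with neqc and offset 50, 29 without a filter, 134 with the stricter filter, 476 with trend and robust options, 2558 by the methods' t-test without adjustment and 6 with it, and between 3 and 6 with 1 array left out.

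With 1 array left out, 0 member probes passed. The count at an unadjusted p under 0.05, an alternative chosen after seeing the data, was 3 in every fit run. Without NME2-induced replicate 3 and without control replicate 2, however, LAMP3 probe ILMN_2170813 left that count and the dim SOX2 probe ILMN_1770635 entered it at -0.45 and -0.46, values set against NME2-induced arrays at or near background and not read as a change. Values for the brighter SOX2 probe lay between 0.30 and 0.38 with 1 array left out, and those for LAMP3 between 0.24 and 0.37. Small values changed sign in such fits. SFTPD lay between -0.17 and 0.32, and ABCA3 between -0.12 and 0.06. With the replicate block 3 of all probes and 0 member probes passed. Arrays with the same replicate number did not deviate together (correlations of 0.020, -0.023 and -0.022), so the numbers were not taken to pair the samples. Detection at p under 0.01 in place of 0.05 left 6 of the 8 member probes. Members near background (SFTPB, SFTPC, SFTPD, NKX2-1, GATA6 and the dim SOX2 probe) are limited by signal over background.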

Other observations

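Several dim genes of the lung programme had a probe detected on control arrays only, and others on NME2-induced arrays only. The probes named here were picked after their values were seen and did not meet the filter for testing. SCGB3A2, a secretoglobin of airway epithelium, had signals of 4.58, 8.64 and 3.75 on the NME2-induced arrays, against 20.8, 23.8 and 10.2 on the control arrays, and was detected on 0 and 2 arrays. These groups did not overlap. The hedgehog-binding protein HHIP, by its probe ILMN_1675453, gave 8.09, 5.07 and 11.5 in NME2-induced cells and 11.3, 12.7 and 12.4 in control cells, and the Wnt inhibitor WIF1 gave 1.21, 10.4 and 5.70 against 13.5, -0.899 and 13.5. Both were detected on 0 NME2-induced arrays and 2 control arrays, and their groups overlapped. A second HHIP probe was detected on 0 arrays. FOXP1 and ABCA10, which had other probes tested, each had a probe with the same 0 and 2 detections. The opposite pattern, 2 NME2-induced arrays and 0 control arrays, was seen for a probe of ABCA9 and for ILMN_2401714 of the B cell gene MS4A1. That MS4A1 probe gave 8.35, 15.1 and 32.8 in NME2-induced cells, against 3.34, 6.15 and -4.21 in control cells, also without overlap. Probes of SFTPB, GATA6, SCGB1A1, PGC, DMBT1 and FOXP2 were detected on 1 NME2-induced array and 0 control arrays. The reverse, 0 and 1, was seen for probes of MFSD2A, CSF2RB, RTKN2 and MYCN, among others. Of these, the CSF2RB probe was lower on every NME2-induced array than on any control array. No direction is read from such single detections, or from the separations of SCGB3A2, MS4A1 and CSF2RB. The share of all untested probes with either pattern was not counted. Between 19916 and 20726 probes were detected on a control array and between 19043 and 20047 on an NME2-induced array, ranges that overlapped. The part of this in the detections above was not tested.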
